A study of Mus musculus with 40 samples.

Results

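Lipolysis releases fatty acids from the triglyceride of lipid droplets in steps. Adipose triglyceride lipase (ATGL, *Pnpla2*) removes the first fatty acid, hormone-sensitive lipase (HSL, *Lipe*) hydrolyzes the diglyceride, and monoglyceride lipase (*Mgll*) frees the last fatty acid and leaves glycerol, which exits the adipocyte through the channel aquaporin 7 (*Aqp7*). CGI-58 (*Abhd5*) is the coactivator of ATGL, G0S2 (*G0s2*) is its inhibitor, and PNPLA3 (*Pnpla3*) is a relative of ATGL that sits on lipid droplets and binds CGI-58. In brown adipose tissue (BAT), Gs-coupled receptors raise cAMP, protein kinase A phosphorylates HSL and the droplet coat, and the freed fatty acids both activate and fuel UCP1.

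The 7 genes named above, the lipolysis enzymes and regulators, were chosen by their symbols from 20295 genes, and all 7 were among the 13277 genes with enough counts to be tested. Their mRNA was measured by RNA sequencing of BAT from 40 male mice, 5 in each of 8 groups, kept at 29 °C. In the first cohort, aged 13 to 19 weeks, C-3BO mice carried the *Gpr3* TTG allele and *Ucp1*-Cre, which switches on expression of *Gpr3*, a constitutively active Gs-coupled receptor, in brown and beige adipocytes from early life. Their control littermates carried either the TTG allele without Cre or Cre without the allele, and the labels do not say which mouse carried which. In the second cohort, aged 15 weeks, mice labelled wildtype, which the study's methods describe as control littermates of a tamoxifen-inducible *Gpr3* line, received CL-316,243 (CL), an agonist of the β3-adrenergic receptor, at 1 mg/kg or saline on each of 9 days. Within both cohorts the mice ate chow or, for 7 days, a high fat diet (HFD) with 60 kcal% fat, which for the injected mice began after 2 days of injections. The comparisons ask what a constitutively active receptor or a drug-stimulated receptor, each on both diets, does to these transcripts. Tissue was taken the day after the last injection. Each library came from a separate mouse, and mRNA levels say nothing of phosphorylation or enzyme activity.

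Libraries held 849126 to 15260516 counts. The 12 libraries with the lowest totals, up to 7284129 counts, were all HFD saline and HFD CL mice and HFD C-3BO replicates 4 and 5. These 12 also held the liver transcript *Alb* at 62.1 to 294 CPM (counts scaled to a common library size, corrected by TMM factors), against at most 1.62 CPM elsewhere. The summed level of 7 epididymis markers was 9.02 to 63.6 CPM in these 12, against at most 0.979 CPM elsewhere. In the injected mice, diet and this set of libraries therefore cannot be told apart. *Gpr3* lay at 266 to 463 CPM in chow C-3BO and 688 to 918 CPM in HFD C-3BO mice and below 0.75 CPM in their controls, with transgene and endogenous transcript counted together. In the injected mice *Gpr3* was at most 1.18 CPM, apart from chow CL replicate 3 at 9.15 CPM, and the reason was not tested. All 10 brown adipocyte markers and all 7 general adipocyte markers were detected. The summed level of 9 skeletal muscle markers ran from 682 to 8730 CPM in chow control mice and from 4.97 to 196 CPM in HFD control mice. It was also lower with stimulation on chow, with medians of 6320 CPM in control and 1370 CPM in C-3BO mice, and of 1020 CPM in saline and 67.5 CPM in CL mice. The summed level of 6 macrophage markers had medians of 132 CPM in chow saline, 339 CPM in HFD saline and 208 CPM in HFD CL mice, and the part of either cell type in the results was not tested. Chow CL replicate 5 went against its label, with *Ucp1* at 1640 CPM in the range of the chow saline mice. It was kept as labelled, so each chow CL result rests on a mouse whose treatment is in doubt. Without it, 2 members were called for CL on chow, as with it, 2 instead of 3 for HFD in CL mice, and 0 instead of 1 in the difference of the C-3BO and CL effects on chow. In bulk tissue, fewer cells of a type and less RNA per cell cannot be told apart.

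The sequence just upstream of 3 members is shown because *Mgll* and *Aqp7* moved in opposite directions with stimulation and *Pnpla3* holds the only cAMP response element among the 7. Each run gives, 5′ to 3′, the 250 bases before the first base of the gene as the files place it, with motif matches in capitals.
*Mgll*, mm9 chr6:88674156-88674405, plus strand: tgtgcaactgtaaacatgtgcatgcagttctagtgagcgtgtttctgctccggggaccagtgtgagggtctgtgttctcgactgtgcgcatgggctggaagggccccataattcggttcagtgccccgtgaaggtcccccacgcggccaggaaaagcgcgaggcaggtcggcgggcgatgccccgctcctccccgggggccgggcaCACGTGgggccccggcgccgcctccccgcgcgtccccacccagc
*Aqp7*, mm9 chr4:40995170-40995419, minus strand: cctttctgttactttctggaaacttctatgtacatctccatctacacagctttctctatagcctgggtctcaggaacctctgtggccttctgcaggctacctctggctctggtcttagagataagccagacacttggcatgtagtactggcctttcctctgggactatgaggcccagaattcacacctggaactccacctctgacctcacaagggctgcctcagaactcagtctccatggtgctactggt
*Pnpla3*, mm9 chr15:83997996-83998245, plus strand: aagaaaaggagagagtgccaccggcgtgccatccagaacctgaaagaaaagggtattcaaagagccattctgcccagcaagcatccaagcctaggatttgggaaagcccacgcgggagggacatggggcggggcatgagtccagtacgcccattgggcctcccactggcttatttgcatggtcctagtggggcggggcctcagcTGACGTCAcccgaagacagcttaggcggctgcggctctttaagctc
The capitals mark an E-box (CACGTG) 44 to 39 bases upstream of *Mgll* and a cAMP response element (TGACGTCA) 46 to 39 bases upstream of *Pnpla3*. *Aqp7* held neither motif and no CpG dinucleotide in this window, with 50.8% G and C, whereas *Mgll* held 23 CpG dinucleotides at 68.0% G and C. Among the other members, *Lipe* held an E-box 155 to 150 bases upstream, and none of the 7 held a direct repeat of the nuclear receptor half-site (AGGTCANAGGTCA). Both strands were searched, and the motifs do not overlap in these windows. Of the 32851 mouse promoters of RefSeq (GRCm38.p6), read over the same 250 bases and holding all 7 members, 6.02% held the E-box, 1.55% the cAMP response element and 0.0335% the direct repeat. These are matches of letters, and binding was not measured.

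The members spanned a wide range of abundance. Per kilobase of the exon length counted, the mean level over 40 libraries was 1560 CPM per kb for *Pnpla2* (NM_001163689, mm9 chr7:148641087-148646642, plus strand), higher than that of 99.8% of genes. *Lipe* (NM_010719, chr7:26164546-26181006, minus) followed at 1030 and *Mgll* (NM_011844, chr6:88674406-88778354, plus) at 410 CPM per kb. The inhibitor *G0s2* (NM_008059, chr1:195098354-195099382, minus) stood at 275, *Pnpla3* (NM_054088, chr15:83998246-84019951, plus) at 157 and *Aqp7* (NM_007473, chr4:40980107-40995169, minus) at 142 CPM per kb. The coactivator *Abhd5* (NM_026179, chr9:122260734-122290641, plus) was the least abundant at 38.9 CPM per kb. Its lowest single library, HFD saline replicate 4, still held 59 counts. The highest group mean exceeded the lowest 1.33-fold for *Pnpla2* and 1.36-fold for *Lipe*, against 3.17-fold for *Mgll* and 3.46-fold for *G0s2*. The lipases of the first 2 steps were thus the most abundant members and the ones whose group means differed least.

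**Figure D1:**
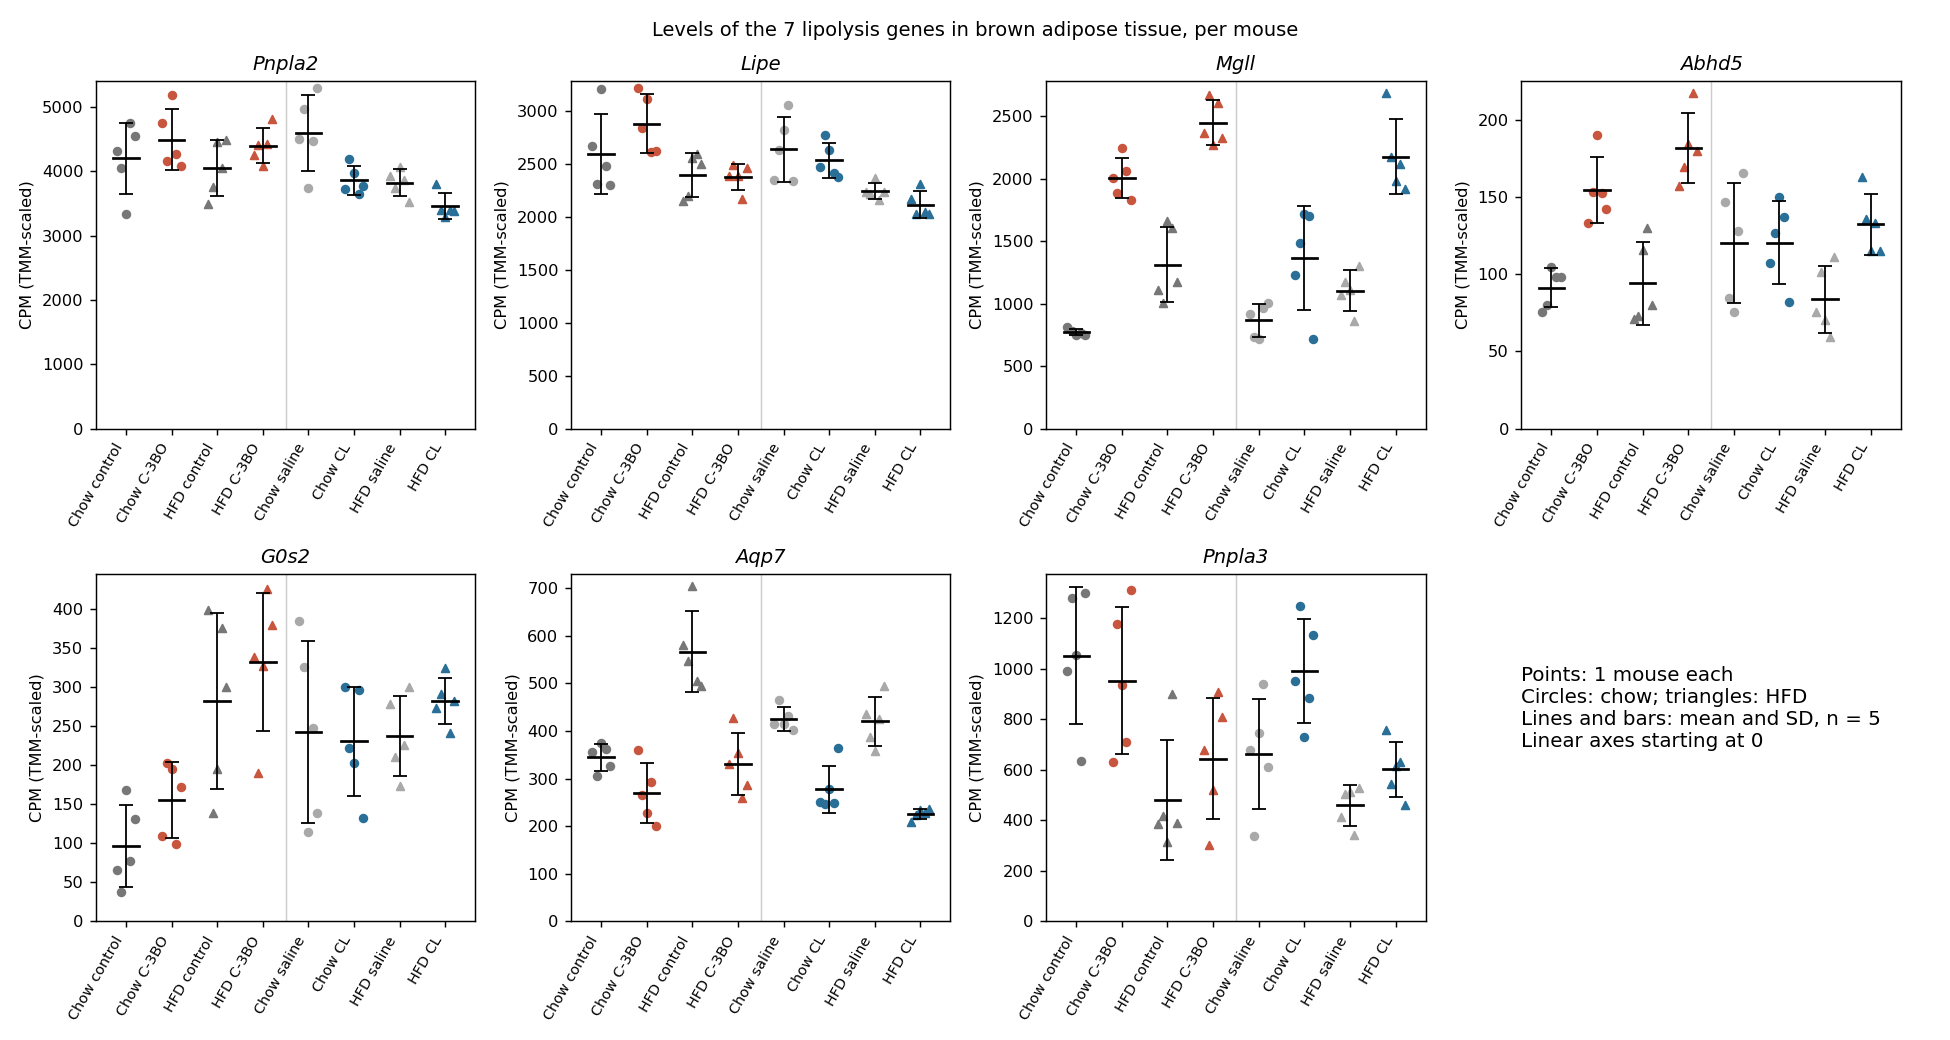
CPM (linear axes from 0) of each member in each mouse, by group, with the cohort of C-3BO mice left of the grey line and the injected cohort right of it; black lines and bars give the mean and SD of 5 mice. *Mgll* ran from a mean of 773 CPM in chow control to 2449 CPM in HFD C-3BO mice, while the *Pnpla2* means lay between 3453 and 4595 CPM.

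The quasi-likelihood test of edgeR was applied to all 13277 genes, with Benjamini-Hochberg adjustment over them, and SE stands for the standard error of the log2 change. A gene was called higher or lower at an adjusted p under 0.05, and induced or reduced where the log2 fold change also passed 1 or -1. With CL on chow, 1 member was higher (*Mgll*) and 1 lower (*Aqp7*) of 7, when 15.3% of all genes were called, and 1 member had groups that did not overlap, as did 9.40% of genes. With CL on HFD, 2 were higher (*Mgll*, *Abhd5*) and 1 lower (*Aqp7*) against 23.5% of genes called, and all 3 had separate groups, as did 16.4% of genes. In C-3BO mice the same 3 genes were called in the same directions on chow, where 31.6% of genes were called, and on HFD, where 34.8% were. The groups of 2 members were separate on chow (18.5% of genes) and those of 3 on HFD (20.8% of genes). A share of 3 in 7 is close to the background of the C-3BO comparisons. The median log2 fold change of the 7 was -0.06 and 0.25 for CL on chow and HFD and 0.15 and 0.24 for C-3BO, beside medians of all genes between -0.03 and -0.01. Scaling by library totals alone moved the median of all genes by -0.20 to -0.14 in these comparisons and by 0.15 to 0.18 in those of diet. It took the share of calls that were higher from 49.8% to 59.9% down to 20.2% to 30.1% with stimulation, and from 46.1% to 52.6% up to 71.2% to 84.8% with diet, and the values given here are relative to TMM scaling.

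In the fit of all libraries, diet comparisons called members that no stimulation comparison called, *G0s2*, *Pnpla3* and *Lipe*, and also *Mgll* and *Aqp7*. Whether the effects of diet and stimulation on these members differ was not tested. In control mice, 3 were higher on HFD (*Mgll*, *G0s2*, *Aqp7*) and 1 lower (*Pnpla3*), when 32.9% of genes were called, and 2 had separate groups, as did 18.9% of genes. In C-3BO mice, *G0s2* was higher and *Lipe* lower against 25.7% of genes called, and 2 members were separate, as were 16.0% of genes. None of the 7 was called in saline mice by edgeR, when 15.5% of genes were called and 9.03% had separate groups, although 4 members had an unadjusted p under 0.05 and DESeq2 called *Pnpla2*. In CL mice, *Mgll* was higher and *Lipe* and *Pnpla3* were lower against 23.6% of genes called, with 3 members separate, as were 18.2% of genes.

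**Figure D2:**
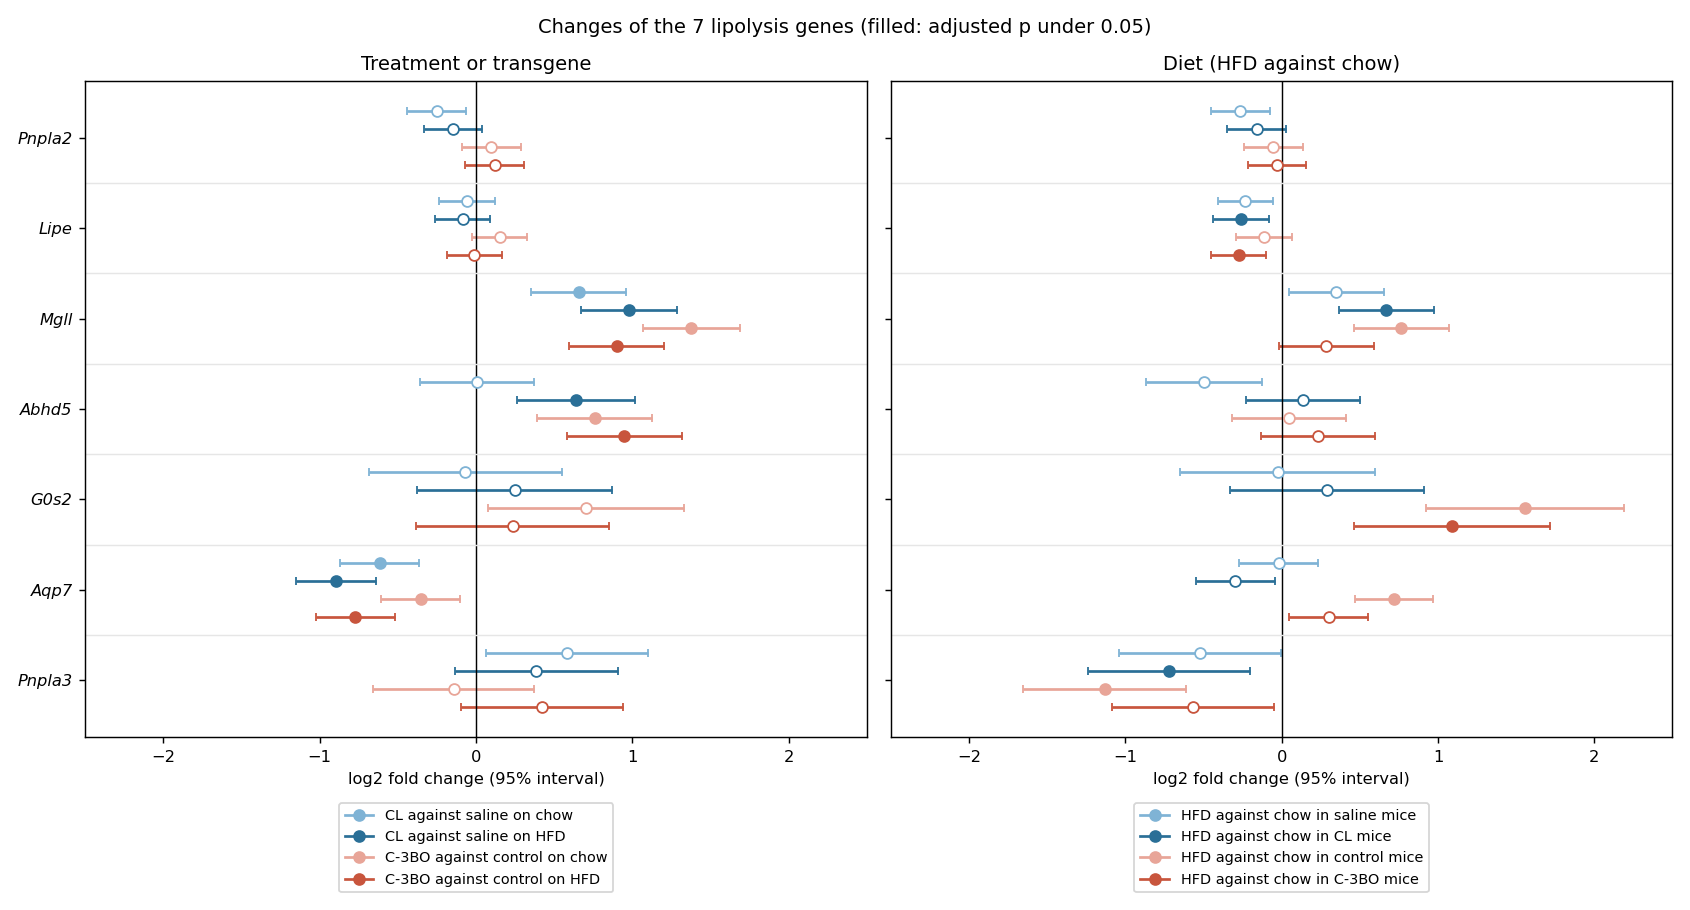
Log2 fold changes (points) with approximate 95% intervals (bars) of each member, for the 4 comparisons of treatment or transgene (left) and the 4 of diet (right). Filled points passed an adjusted p of 0.05. *Mgll* lies right of 0 and *Aqp7* left of it in all 4 comparisons on the left panel, from 0.66 to 1.38 and from -0.89 to -0.36.

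*Pnpla2*, which encodes the lipase of the first step, was not called in any of the 8 comparisons. In chow saline mice it lay at 4503, 4969, 3732, 4474 and 5299 CPM and in chow CL mice at 3717, 4193, 3974, 3646 and 3770 CPM. The groups overlapped, and the log2 fold change was -0.25 (95% interval -0.44 to -0.06, edgeR adjusted p = 0.0683). Without chow saline replicate 3, the lowest of its group, it was -0.33 (edgeR adjusted p = 0.0216), and DESeq2 called it with all mice (-0.27, adjusted p = 0.0204). In C-3BO mice the interval ran from -0.09 to 0.28 on chow and from -0.07 to 0.31 on HFD. The largest diet value was that of saline mice, at -0.27 (edgeR adjusted p = 0.0535), and it was -0.32 without chow saline replicate 3 (edgeR adjusted p = 0.0204). Ordered by mean, chow saline mice came first at 4595 ± 592 CPM (SD, n = 5) and HFD CL mice last at 3453 ± 201 CPM (SD, n = 5), and the ranges of all 7 neighbouring pairs in that order overlapped.

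*Lipe*, encoding the diglyceride lipase, passed no test of CL or C-3BO. Its log2 fold changes were -0.06 and -0.09 with CL and 0.15 and -0.01 in C-3BO mice, and the first C-3BO value rose to 0.24 (edgeR adjusted p = 0.0357) without chow control replicate 3. That control mouse had the highest *Lipe* of its group, 3212 CPM, and the highest muscle marker sum, 8730 CPM. Chow control replicates 4 and 5, next in that sum at 8160 and 6320 CPM, had *Lipe* at 2479 and 2297 CPM. The part of muscle in the level of *Lipe* was not tested. On HFD, *Lipe* was lower in C-3BO mice, at 2388, 2490, 2389, 2172 and 2458 CPM against 3222, 2839, 3116, 2610 and 2619 CPM on chow. Each HFD mouse lay below each chow mouse, with a log2 fold change of -0.28 (edgeR SE 0.09 and adjusted p = 0.0213). The call rests on TMM scaling and on single mice. With library totals alone the value was -0.09 (edgeR adjusted p = 0.43). The call was also lost without chow C-3BO replicate 1 (edgeR adjusted p = 0.0711) and without the *Alb*-bearing HFD C-3BO replicates 4 and 5 (-0.25, edgeR adjusted p = 0.103). In CL mice the diet difference was -0.26 (edgeR SE 0.09 and adjusted p = 0.0318), again with separate groups, and it was lost in 5 of the 10 fits that left out 1 mouse, without chow CL replicates 2 or 3 or HFD CL replicates 2, 4 or 5 (edgeR adjusted p = 0.0618 to 0.106). It was also lost with at least 10 counts required in every library (edgeR adjusted p = 0.0512) and with library totals alone, where the value was -0.09 (edgeR adjusted p = 0.468). In saline mice it was -0.23 (edgeR adjusted p = 0.0732) and, without chow saline replicate 5, -0.27 (edgeR adjusted p = 0.0441), and in control mice -0.11 (edgeR adjusted p = 0.36). The ranges of all 7 neighbouring groups in the order of means, from chow C-3BO (2881 CPM) to HFD CL (2116 CPM), overlapped.

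*Mgll*, which encodes the lipase of the final step, was the member that rose with both kinds of stimulation on both diets. It lay at 813, 778, 753, 767 and 752 CPM in chow control mice and at 2005, 1890, 2247, 2061 and 1833 CPM in chow C-3BO mice. These groups were far apart, and *Mgll* was induced 2.60-fold (log2 fold change 1.38, edgeR SE 0.16 and adjusted p = 2.65e-08). On HFD, control mice had 1109, 1008, 1661, 1610 and 1176 CPM and C-3BO mice 2364, 2674, 2272, 2606 and 2327 CPM. The groups again did not overlap, at a log2 fold change of 0.90 (edgeR SE 0.16 and adjusted p = 2.01e-05). Both calls held without each mouse in turn and under each alternative setting.

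CL gave a rise of *Mgll* in all but a single mouse. Chow saline mice had 915, 736, 719, 965 and 1004 CPM and chow CL mice 1229, 1484, 1715, 1705 and 714 CPM. Chow CL replicate 5 lay below every saline mouse, while the other 4 CL mice lay above all of them. The same mouse had *Ucp1* at 1640 CPM, within the saline range of 1270 to 1860 CPM, where the other 4 CL mice had 5940 to 8990 CPM. With all mice the log2 fold change was 0.66 (edgeR SE 0.16 and adjusted p = 0.00301), and without replicate 5 it was 0.82 (edgeR adjusted p = 2.9e-05). Fitted on the chow saline and chow CL libraries alone, it was 0.64 and did not pass (edgeR adjusted p = 0.0616). On HFD, saline mice had 1069, 1177, 1110, 858 and 1305 CPM and CL mice 2685, 2178, 1985, 2120 and 1921 CPM, a separation of the groups with a log2 fold change of 0.98 (edgeR SE 0.16 and adjusted p = 1.25e-05).

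The C-3BO effect on *Mgll* on chow exceeded the CL effect by 0.72 on the log2 scale (95% interval 0.29 to 1.15, edgeR adjusted p = 0.041), the sole member called in this difference of effects, for which 6.24% of genes were called. The groups belong to different cohorts with their own controls. The difference was lost in 13 of 20 fits that left out 1 mouse (edgeR adjusted p = 0.0508 to 0.0737), and it fell to 0.56 without chow CL replicate 5 (edgeR adjusted p = 0.0699). On HFD the corresponding difference for *Mgll* was -0.08 (95% interval -0.51 to 0.35), and edgeR called none of the 7, when 1.80% of genes were called and the smallest unadjusted p among members was 0.0564. Between diets, the response of *Mgll* to C-3BO was different by -0.48 on HFD from that on chow (95% interval -0.91 to -0.05, edgeR adjusted p = 0.276), and edgeR called no member there, with 2.08% of genes called and unadjusted p under 0.05 for *Mgll* and *Aqp7*. For CL the response differed by 0.32 between HFD and chow (95% interval -0.11 to 0.75). Only 0.0151% of genes and no member were called in that one by edgeR, with *Abhd5* the single member at an unadjusted p under 0.05. DESeq2 likewise called no member in these last 3 differences.

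HFD raised *Mgll* in control mice to the values given above, each above each chow control mouse (log2 fold change 0.76, edgeR SE 0.16 and adjusted p = 0.000194). It was also higher on HFD in CL mice (0.67, edgeR SE 0.16 and adjusted p = 0.00154), and each HFD CL mouse exceeded each chow CL mouse. In C-3BO mice every HFD mouse lay above every chow mouse, but the log2 fold change of 0.29 did not pass (edgeR adjusted p = 0.176), and in saline mice it was 0.35 (edgeR adjusted p = 0.123). Both passed with library totals alone, at 0.47 (edgeR adjusted p = 0.00757) and 0.53 (edgeR adjusted p = 0.00574), and the C-3BO value passed with the compared libraries alone (0.26, edgeR adjusted p = 0.0404). Without chow CL replicate 5 the value in CL mice was 0.51 (edgeR adjusted p = 0.00561). Within HFD control mice, replicates 3 and 4 were high for *Mgll* (1661 and 1610 CPM) and also for *Ucp1* (5260 and 9440 CPM, against 2570 to 4540 CPM in the other 3). In the order of group means, from HFD C-3BO through HFD CL, chow C-3BO, chow CL, HFD control, HFD saline and chow saline to chow control, only chow C-3BO and chow CL did not overlap with their neighbour. Over the chow control mice, whose muscle marker sums ran from 682 to 8730 CPM, *Mgll* lay between 752 and 813 CPM. The part of muscle in the level of *Mgll* was not tested.

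*Abhd5* encodes the coactivator of ATGL. Chow control mice had 75.8, 79.9, 105, 98.3 and 98.1 CPM and chow C-3BO mice 134, 154, 190, 153 and 143 CPM. All C-3BO mice lay above all controls, with a log2 fold change of 0.76 (edgeR SE 0.19 and adjusted p = 0.00188). On HFD, control mice had 71.3, 72.8, 116, 130 and 80.3 CPM and C-3BO mice 157, 170, 185, 217 and 180 CPM. The groups were again separate, with a log2 fold change of 0.95 (edgeR SE 0.19 and adjusted p = 0.000131). Of the HFD control mice, replicates 3 and 4 were the highest, as for *Mgll*.

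With CL, *Abhd5* rose on HFD but was not called on chow. HFD saline mice had 75.9, 102, 70.5, 59.1 and 111 CPM and HFD CL mice 163, 136, 115, 133 and 115 CPM. No values overlapped, and the log2 fold change was 0.64 (edgeR SE 0.19 and adjusted p = 0.0135). On chow, saline mice spread over 147, 84.6, 75.8, 128 and 166 CPM and CL mice over 107, 127, 150, 137 and 81.8 CPM. These ranges overlapped almost wholly, and the log2 fold change was 0.00 (95% interval -0.36 to 0.37, edgeR adjusted p = 0.997). The difference between the CL effects on the diets was 0.63 (95% interval 0.11 to 1.16, edgeR adjusted p = 0.45) and was not called, so an effect of CL on *Abhd5* that depends on diet was not shown. On chow, C-3BO exceeded CL in its effect on *Abhd5* by 0.76 (edgeR adjusted p = 0.0762; DESeq2 adjusted p = 0.0494), and it passed in edgeR without chow CL replicate 3, chow saline replicate 2 or chow saline replicate 3 (adjusted p = 0.0489, 0.0342 and 0.0238). No diet comparison of *Abhd5* was called. In saline mice the value was -0.50 (edgeR adjusted p = 0.0699), and it passed without chow saline replicates 2 or 3 or HFD saline replicate 5, with adjusted p of 0.0307, 0.0232 and 0.0352. All 7 neighbouring groups overlapped in the order from HFD C-3BO (182 CPM) to HFD saline (83.7 CPM).

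*G0s2*, encoding the inhibitor of ATGL, had coefficients of variation among mice of a group from 10.6% in HFD CL to 54.9% in chow control mice. No comparison of CL or C-3BO was called for it. The value nearest to the threshold was C-3BO on chow, where control mice had 65.3, 38.0, 168, 77.2 and 131 CPM and C-3BO mice 109, 202, 195, 99.3 and 172 CPM. The ranges overlapped, and the log2 fold change was 0.70 (95% interval 0.07 to 1.33, edgeR adjusted p = 0.0906). That it did not pass rested on 1 mouse, since without chow control replicate 3, the highest control, the value was 1.01 (edgeR adjusted p = 0.0189).

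HFD induced *G0s2* in the cohort that received no injections. HFD control mice had 399, 139, 195, 376 and 299 CPM, of which only replicate 2 lay within the chow control range (log2 fold change 1.56, edgeR SE 0.32 and adjusted p = 0.000259). HFD C-3BO mice had 338, 190, 327, 425 and 379 CPM, again with only replicate 2 within the range of the chow C-3BO mice (log2 fold change 1.09, edgeR SE 0.32 and adjusted p = 0.0105). Without the *Alb*-bearing replicates 4 and 5 the second value was 0.87 (edgeR adjusted p = 0.0938), while the first held without each mouse in turn (1.35 to 1.86). In saline mice the diet difference was -0.03 (95% interval -0.65 to 0.60) and in CL mice 0.29 (95% interval -0.33 to 0.91). Chow saline mice already lay at 384, 326, 114, 247 and 138 CPM, mostly above the chow control mice. Those 2 groups belong to different cohorts, and whether the diet effects differ between cohorts was not tested. All 7 neighbouring groups in the order of means, from HFD C-3BO (332 CPM) to chow control (95.9 CPM), overlapped.

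*Aqp7*, which encodes the glycerol channel, fell with both kinds of stimulation. HFD saline mice had 436, 386, 359, 426 and 494 CPM and HFD CL mice 210, 224, 234, 227 and 236 CPM. The groups were wide apart, with a log2 fold change of -0.89 (edgeR SE 0.13 and adjusted p = 3.13e-06). On chow, saline mice had 414, 466, 414, 431 and 403 CPM and CL mice 252, 247, 278, 249 and 364 CPM, and the log2 fold change was -0.62 (edgeR SE 0.13 and adjusted p = 0.000879). The highest CL mouse was replicate 5, the mouse that also lacked the rise of *Mgll*, and without it the value was -0.73. In C-3BO mice on HFD, *Aqp7* lay at 331, 427, 353, 259 and 287 CPM against 582, 546, 705, 506 and 494 CPM in controls. These groups were separate as well (log2 fold change -0.77, edgeR SE 0.13 and adjusted p = 1.16e-05).

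The fall of *Aqp7* in C-3BO mice on chow was smaller and depended on single mice. Control mice had 355, 306, 375, 361 and 325 CPM and C-3BO mice 361, 267, 227, 292 and 200 CPM, with C-3BO replicate 1 inside the control range. The log2 fold change was -0.36 (edgeR SE 0.13 and adjusted p = 0.0316). The call was lost in 6 of 10 fits that left out 1 mouse, those without chow C-3BO replicates 2, 3 or 5 or chow control replicates 1, 3 or 4 (edgeR adjusted p = 0.0531 to 0.132). The difference of the C-3BO effects on HFD and chow was -0.42 (95% interval -0.77 to -0.06, edgeR adjusted p = 0.248) and was not called.

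HFD raised *Aqp7* in control mice, where all 5 HFD mice exceeded all 5 chow mice (log2 fold change 0.72, edgeR SE 0.13 and adjusted p = 3.52e-05). In C-3BO mice the diet difference was 0.30 (edgeR adjusted p = 0.0828). It was 0.43 without chow C-3BO replicate 1 (edgeR adjusted p = 0.0136) and 0.46 without the *Alb*-bearing HFD C-3BO replicates 4 and 5 (edgeR adjusted p = 0.0184). In saline mice it was -0.02 (95% interval -0.27 to 0.23), and in CL mice all HFD values lay below all chow values without passing the test (-0.30, edgeR adjusted p = 0.0899). Capillary endothelium also holds aquaporin 7. The summed level of the 5 endothelial markers was 694 to 1040 CPM in chow control and 1370 to 1770 CPM in HFD control mice, and 1150 to 1300 CPM in HFD C-3BO mice. It was 1100 to 1190 CPM in HFD saline and 1230 to 1670 CPM in HFD CL mice, where *Aqp7* was lower. The part of endothelial cells in the level of *Aqp7* was not tested. In the order of means only HFD control (567 CPM) and chow saline (426 CPM), the highest 2, did not overlap as neighbours, and HFD CL mice came last at 226 CPM.

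*Pnpla3* passed no test of CL or C-3BO in the fit of all libraries. With CL on HFD the value was 0.38 (edgeR adjusted p = 0.314), and with the compared libraries alone it passed at 0.37 (edgeR adjusted p = 0.0464). With CL on chow its mean was 990 ± 206 CPM (SD, n = 5) against 661 ± 218 CPM (SD, n = 5) with saline, a log2 fold change of 0.58 (95% interval 0.06 to 1.10, edgeR adjusted p = 0.133). In C-3BO mice on HFD the value was 0.42 (edgeR adjusted p = 0.218), and it was 0.78 (edgeR adjusted p = 0.0145) without HFD control replicate 4. That mouse had 899 CPM where the other 4 had 385, 415, 313 and 390 CPM, and it also had the highest *Ucp1* of its group.

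Diet reduced *Pnpla3* in control mice, from 992, 1280, 1056, 633 and 1300 CPM on chow to the values just given on HFD. Apart from HFD control replicate 4, each HFD mouse lay below each chow mouse, and the log2 fold change was -1.13 (edgeR SE 0.27 and adjusted p = 0.00106). Without that replicate it was -1.50. In CL mice the diet difference was -0.72 (edgeR SE 0.26 and adjusted p = 0.0439), with 756, 543, 617, 632 and 459 CPM on HFD against 952, 1250, 729, 884 and 1135 CPM on chow. The ranges met at a single mouse of each group, and the call was lost in 7 of 10 fits that left out 1 mouse, those without chow CL replicates 1, 2 or 5 or HFD CL replicates 2, 3, 4 or 5 (edgeR adjusted p = 0.062 to 0.112). It was also lost with DESeq2 (adjusted p = 0.0607) and, in edgeR, with RLE factors (adjusted p = 0.0527), with library totals alone (-0.56, adjusted p = 0.0871) and with the replicate number as a block (adjusted p = 0.0545). In C-3BO mice the diet difference was -0.57 (edgeR adjusted p = 0.114; -0.93 and 0.0308 without HFD C-3BO replicates 4 and 5) and in saline mice -0.52 (edgeR adjusted p = 0.185). *Pnpla3* is also known from the liver. The HFD control mice, in which its fall was largest, had *Alb* below 1 CPM in every library. The part of liver transcripts in the level of *Pnpla3* was not tested. All 7 neighbouring groups overlapped in the order from chow control (1052 CPM) to HFD saline (459 CPM).

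Ratios within a library do not depend on how libraries are scaled, and they show the members against each other. The ratio of *Mgll* to *Aqp7*, in counts per kilobase, was 1.55 ± 0.14 in chow control, 1.60 ± 0.37 in HFD control, 1.41 ± 0.26 in chow saline and 1.82 ± 0.31 in HFD saline mice (SD, n = 5 each). It was 5.32 ± 1.21 in chow C-3BO, 5.22 ± 1.07 in HFD C-3BO, 3.56 ± 1.33 in chow CL and 6.66 ± 1.27 in HFD CL mice (SD, n = 5 each). Of the 20 C-3BO or CL mice, 19 lay between 3.35 and 8.80, and the 20 control or saline mice lay between 1.08 and 2.18. The exception was chow CL replicate 5 at 1.35. In these same mice *Mgll* was called higher and *Aqp7* lower in each comparison of stimulation. The separation of this ratio therefore restates those calls and is no further support.

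The ratio of the coactivator to the lipase, *Abhd5* to *Pnpla2*, was 0.0186 ± 0.0045 in chow control and 0.0289 ± 0.0031 in chow C-3BO mice. It was 0.0217 ± 0.0058 in chow saline and 0.0261 ± 0.0056 in chow CL mice. On HFD it was 0.0194 ± 0.0049 in control and 0.0347 ± 0.0046 in C-3BO mice, and 0.0185 ± 0.0058 with saline and 0.0320 ± 0.0030 with CL (SD, n = 5 each). On HFD each C-3BO or CL mouse exceeded each mouse of its control group. In these same mice *Abhd5* was called higher on HFD, so this separation restates those calls and is no further support. The ratio of the inhibitor to the lipase, *G0s2* to *Pnpla2*, was 0.0750 ± 0.0513 in chow control and 0.109 ± 0.036 in chow C-3BO mice, and 0.221 ± 0.102 and 0.236 ± 0.061 in the same genotypes on HFD (SD, n = 5 each). In the injected mice it lay between 0.164 and 0.256 on average in all 4 groups. *Mgll* to *Lipe*, the ratio of the last lipase to the one before it, was 0.199 in chow control and 0.677 in HFD C-3BO mice on average.

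**Figure D3:**
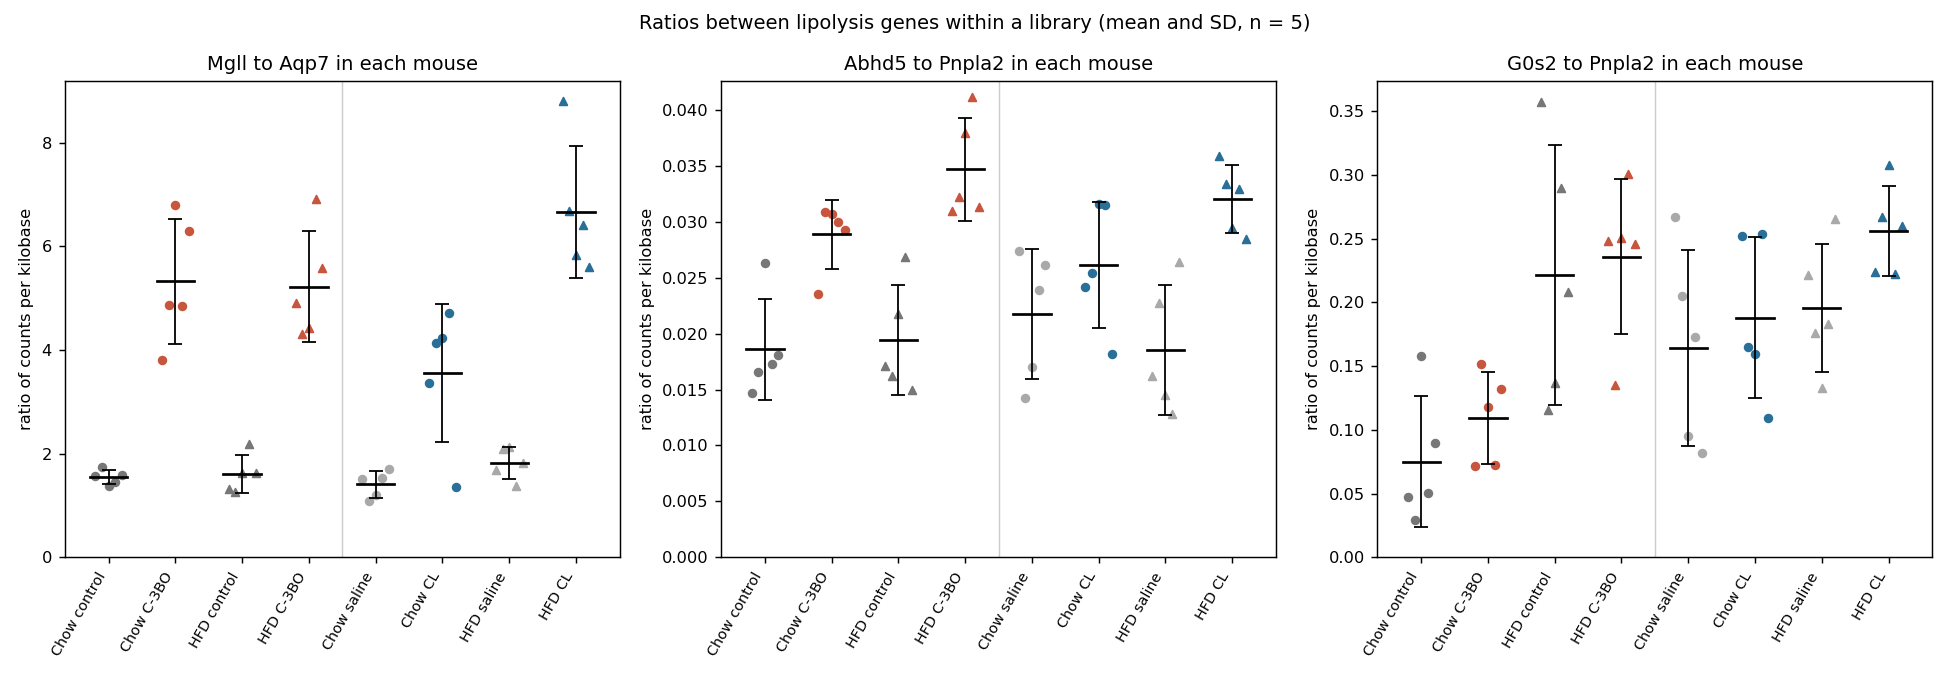
Ratios of counts per kilobase between members within each library (points, linear axes from 0), with mean and SD of 5 mice per group. The *Mgll* to *Aqp7* ratio of all C-3BO and CL mice but 1 chow CL mouse is at least 3.35, and that of all control and saline mice is at most 2.18. This separation restates the calls of *Mgll* and *Aqp7* in the same mice.

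The genes whose log2 CPM followed a member most closely over the 40 libraries are given as a description, since all points share library, group and scaling. For *Mgll* these were *Chrna2* (Pearson's r = 0.962), *Ucp1* (0.953), the uncoupling protein, and *Ephx2* (0.949). For *Abhd5* they were *Ucp3* (0.921), *Cd99l2* (0.913) and *Dgat1* (0.906), the last an enzyme of triglyceride synthesis. *Pnpla3* ran closest to *Fam57b* (0.884), *Scd2* (0.872), a fatty acid desaturase, and *Sqle* (0.862), an enzyme of cholesterol synthesis. *Aqp7* ran closest to *Blcap* (0.854), *Prdm2* (0.836) and *Cyp27a1* (0.83). The closest genes were less alike for *G0s2* (*Ammecr1l*, 0.788; *Mat2a*, 0.721; *Slc25a25*, 0.691), *Lipe* (*Gm960*, 0.768; *Dhcr7*, 0.749; *Sec13*, 0.723) and *Pnpla2* (*Sgta*, 0.741; *Aup1*, 0.736; *Bnip3*, 0.718). Among the members themselves, *Mgll* and *Abhd5* were most alike (0.768) and *Aqp7* and *Pnpla3* most opposed (-0.553). *Pnpla2* and *Lipe*, which act in sequence, had r = 0.418.

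The members stood among 59 further tested genes of 4 lists around lipolysis. With CL on chow and HFD, 35.6% and 44.1% of the 59 were called, beside 15.3% and 23.5% of all genes. In C-3BO mice the shares were 59.3% and 57.6%, beside 31.6% and 34.8% of all genes. Of 13 genes of glycerol handling and re-esterification, which return fatty acids to triglyceride, 8 were higher and 0 lower in C-3BO mice on each diet, and with CL 5 were higher on chow and 7 on HFD with 0 lower (percentages of all genes as given above). The median log2 fold change of this list was 0.75 and 0.74 for C-3BO on chow and HFD and 0.48 and 0.62 for CL. *Agpat2*, an acyltransferase of glycerolipid synthesis, rose by 1.75 and 1.78 for C-3BO on chow and HFD and by 1.46 and 1.91 for CL. *Gyk*, glycerol kinase, rose by 1.46 and 1.81 for C-3BO and by 1.04 and 1.70 for CL, and *Mogat1*, a monoacylglycerol acyltransferase, rose by 1.29 and 2.48 and by 1.39 and 2.36. *Gyk* also rose with HFD in all 4 diet comparisons, by 1.46 in control, 1.81 in C-3BO, 1.28 in saline and 1.95 in CL mice. *Aqp7* thus fell beside a rise of this kinase with stimulation, whereas in control mice on HFD both rose.

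Of 16 tested lipase relatives, 8 and 10 were higher and 0 and 1 lower in C-3BO mice on chow and HFD, and 8 were higher and 1 lower with CL on each diet. The phospholipase *Ddhd2* rose by 1.45 and 1.70 for C-3BO and by 0.82 and 1.28 for CL. *Lipa*, the lysosomal acid lipase, rose by 0.81 and 1.16 for C-3BO and by 0.83 and 0.82 for CL. *Dagla*, which makes the monoglyceride 2-arachidonoylglycerol, rose by 0.99 and 0.58 for C-3BO and by 0.59 and 0.52 for CL. *Ces1d*, a triglyceride hydrolase, rose by 0.46 and 0.48 for C-3BO and by 0.74 and 0.63 for CL. Lipoprotein lipase, *Lpl*, rose by 1.05 in C-3BO mice on HFD and by 0.72 and 1.02 with CL on chow and HFD. *Ces1f* rose by 0.60 and 0.84 for C-3BO and by 0.67 and 0.90 for CL. *Ces3a*, a carboxylesterase known from the liver, was called on HFD in C-3BO mice with 14 and 13 counts in replicates 4 and 5, the libraries with *Alb* at 294 and 272 CPM, 1 count in the other 3 together and 0 in all HFD control mice. Over the groups this is at least 16.8-fold higher, taking 3 counts as the floor for the control group.

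Of 12 lipid droplet proteins, 7 and 4 were higher and 2 and 2 lower in C-3BO mice on chow and HFD, and 3 and 4 were higher and 1 and 1 lower with CL. The droplet coat protein *Plin2* rose by 1.11 and 1.09 for C-3BO and by 0.67 and 0.94 for CL, whereas *Plin4* fell by 1.54 in C-3BO mice on HFD and by 0.79 and 1.14 with CL. *Hilpda*, another inhibitor of ATGL, fell by 1.46 and 1.18 in C-3BO mice. *Cidec* rose by 1.13 in C-3BO mice on chow and by 0.78 with CL on HFD. *Bscl2*, encoding seipin, rose by 1.07 and 0.87 in C-3BO mice and by 0.92 with CL on HFD. *Cideb*, at a mean of 2.16 CPM with saline on chow, rose by 0.94 with CL on chow, whereas it fell by 0.98 in C-3BO mice on chow. Of 18 genes of hormonal control, 9 and 7 were higher and 1 and 2 lower in C-3BO mice, and 2 and 4 were higher and 1 and 1 lower with CL. With CL these counts were near the share of all genes called, 15.3% on chow and 23.5% on HFD. In C-3BO mice that share was 31.6% and 34.8%. *Adcy3*, an adenylyl cyclase, rose by 0.75 and 2.03 in C-3BO mice on chow and HFD and by 0.85 and 1.61 with CL. *Gnas*, encoding Gsα, rose by 0.45 and 0.83 in C-3BO mice and by 0.55 and 0.89 with CL. *Hcar1* and *Hcar2*, receptors that curb lipolysis, rose by 1.53 and 1.32 in C-3BO mice on chow. *Pde4d*, a phosphodiesterase, rose by 1.16 and 0.92 in C-3BO mice on chow and HFD. The values in these 3 paragraphs on lists are log2 fold changes that passed in edgeR with Benjamini-Hochberg adjustment, apart from the counts of *Ces3a*.

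With HFD in control mice, edgeR called 0 of the 16 lipase relatives, of which 4 had an unadjusted p under 0.05. In these mice HFD raised 5 of 12 lipid droplet proteins and lowered 0, raised 4 and lowered 1 of 13 genes of glycerol handling, and raised 3 and lowered 2 of 18 genes of hormonal control. *Cidec*, *Plin5* and *Plin4* rose by 0.87, 0.72 and 0.65, *Pck1*, which makes glycerol backbones from pyruvate, rose by 1.13 and *Mogat1* fell by 0.97. *Npy1r*, a receptor for neuropeptide Y, and *Adrb1*, an adrenergic receptor, rose by 1.38 and 0.51, and *Irs1*, an insulin receptor substrate, fell by 0.66. The level of *Npy1r* was low, with means of 0.757 CPM on chow and 2.00 CPM on HFD, and its groups overlapped. Of the 59 genes of the 4 lists, 25.4% were called with HFD in control mice, below the share of all genes given above. In C-3BO mice 8 were higher and 9 lower, or 28.8%, and in CL mice 3 were higher and 11 lower, or 23.7%, each near the share of all genes. In saline mice 3 were higher and 11 lower, again 23.7%, beside 15.5% of all genes.

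**Figure D4:**
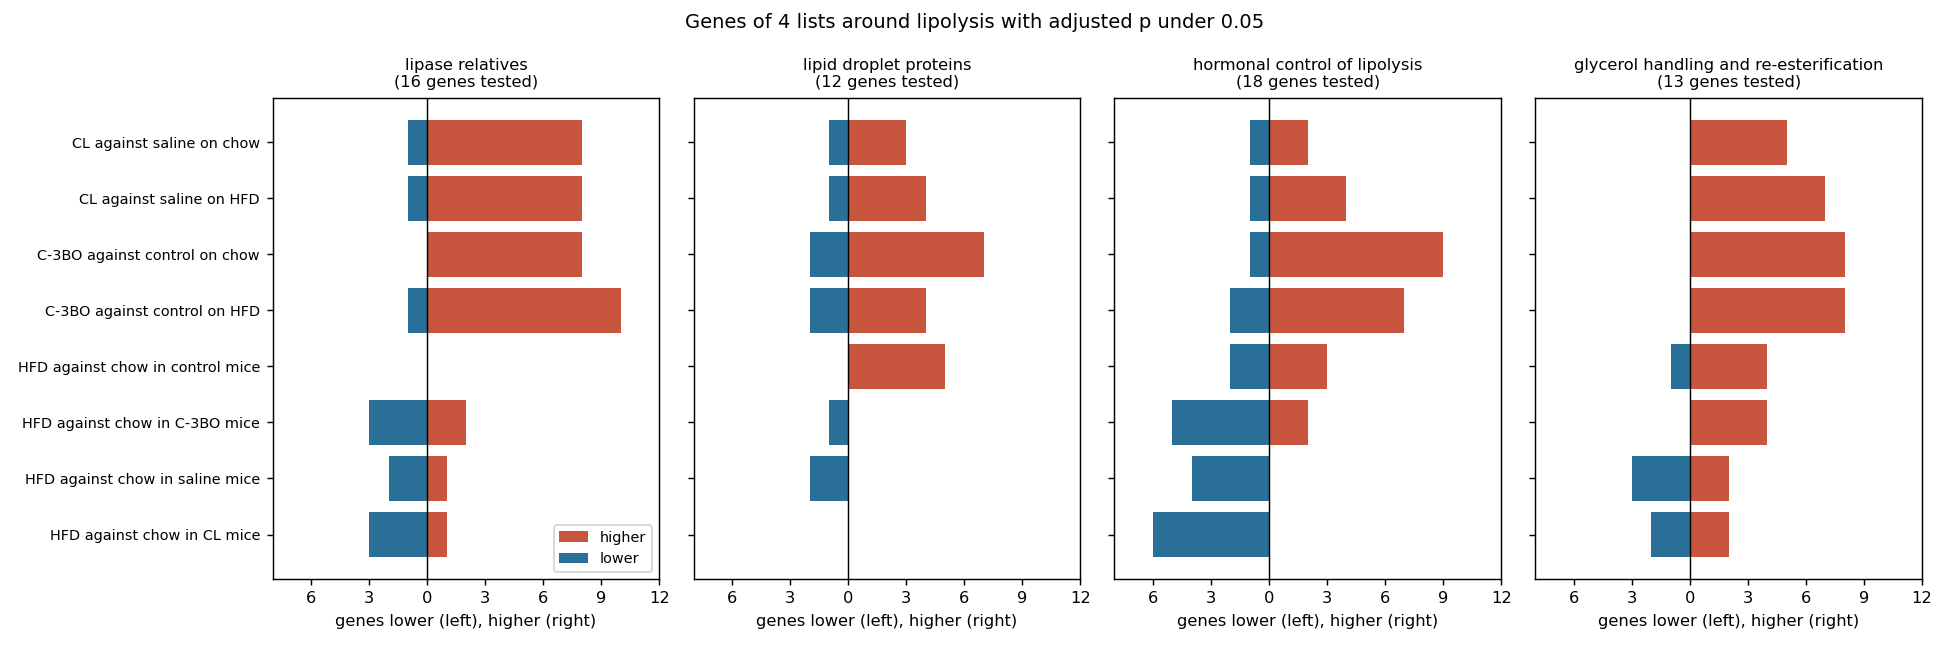
Number of tested genes of each list with an adjusted p under 0.05 in each comparison, higher to the right of 0 and lower to the left. The re-esterification list has 8 genes higher and 0 lower in both C-3BO comparisons.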

How the data were processed

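BAT RNA of 40 mice was sequenced with a TruSeq kit, whose strandedness is not stated. The authors deposited raw counts per gene. They mapped reads to mm9 with STAR, made tag directories with HOMER and counted reads in RefSeq exons with iRNA-seq, in versions not given in the sources used here. The deposited exon length served for levels per kilobase.

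Genes were kept by filterByExpr (minimum count 10), scaled by TMM and fitted in 1 model over all 40 libraries with a mean per group (R 4.3.3, edgeR 4.0.16, limma 3.58.1), and Benjamini-Hochberg adjustment covered all genes tested. DESeq2 1.42.0, other filters and scalings, a replicate block, the compared libraries alone and leaving out mice were alternatives. Same-numbered mice correlated above 0.1 in at most 3 of 5 pairs of a comparison, so the numbers were not taken as pairs. The scripts were tested on simulated counts. Figures were drawn with matplotlib 3.10.9.

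All 7 members are named, and of each further list the 3 called genes with the largest change in the CL and C-3BO comparisons and with HFD in control mice, apart from 1 gene that is not reported here. The rule also named genes for HFD in C-3BO, saline and CL mice, which are given as counts, apart from *Gyk*. A gene named for a CL or C-3BO comparison is also given for the others of these that called it. The members and lists were chosen with earlier results of these data known. The floor of 3 counts covers counting error only. No column was left unused for want of a sample.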

Additional observations from a re-analysis of the deposited data

Results flagged for a closer look

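In 3 of 56 sets of 5 mice (7 genes in 8 groups), 1 mouse stood apart from the rest by Dixon's criterion, which chance meets in about 1 set in 20. *Pnpla2* was 3803 CPM in HFD CL replicate 1, against 3403 CPM in the nearest mouse. *Aqp7* was 363.5 CPM in chow CL replicate 5, against 277.8 CPM in the nearest mouse, and the same mouse had *Mgll* at 713.9 CPM and *Ucp1* at 1640 CPM. *Pnpla3* was 898.5 CPM in HFD control replicate 4, against 415 CPM in the nearest mouse. The effect of C-3BO on *Mgll* on chow exceeded that of CL by 0.72 on the log2 scale (edgeR adjusted p = 0.041).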

How the results depend on the processing

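The calls of *Mgll* and *Abhd5* for C-3BO on both diets, of *Mgll*, *Abhd5* and *Aqp7* for CL on HFD, of *Aqp7* for CL on chow and C-3BO on HFD, and of *Mgll*, *G0s2*, *Aqp7* and *Pnpla3* for HFD in control mice held under each alternative run. Counts of members called moved by over 1.5 times in the following cases, and the cause was not tested. DESeq2 called 2 instead of 1 in the difference of the C-3BO and CL effects on chow and 1 instead of 0 for HFD in saline mice. The compared libraries alone gave 0 instead of 1 in that difference and 1 instead of 2 for CL on chow. Library totals alone gave 5 instead of 3 for CL on HFD, 4 instead of 2 for HFD in C-3BO mice, 1 instead of 3 for HFD in CL mice and 1 instead of 0 for HFD in saline mice. Smaller moves, by 1 call, were 3 instead of 2 for CL on chow (DESeq2, library totals, at least 10 counts), 2 instead of 3 for HFD in CL mice (DESeq2, RLE factors, the block, at least 10 counts), and, with the compared libraries alone, 2 instead of 3 for C-3BO on chow, 4 instead of 3 for CL on HFD and 3 instead of 2 for HFD in C-3BO mice. Leaving out 1 mouse gave 2 to 4 calls for C-3BO on chow, 3 to 4 for C-3BO on HFD, 2 to 3 for CL on chow, 1 to 3 for HFD in CL mice, 0 to 2 for HFD in saline mice and 0 to 3 in the difference of effects on chow.

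Values that changed sign were of members not called. For Abhd5, CL against saline on chow, 0.00 became -0.0116 with at least 10 counts in every library, -0.013 with DESeq2, -0.0131 with RLE factors, -0.0138 with the compared libraries alone, -0.0289 without a filter, -0.13 with library totals, -7e-04 with the replicate block, and -0.14 to 0.15 leaving out 1 mouse. Library totals gave 0.15 for Aqp7, HFD against chow in saline mice, 0.13 for G0s2, HFD against chow in saline mice, -0.049 for Lipe, C-3BO against control on chow, 0.0368 for Lipe, HFD against chow in control mice, -0.10 for Pnpla2, C-3BO against control on chow, -0.0505 for Pnpla2, C-3BO against control on HFD, 0.15 for Pnpla2, HFD against chow in C-3BO mice, 0.009 for Pnpla2, HFD against chow in CL mice, and 0.10 for Pnpla2, HFD against chow in control mice. For G0s2, C-3BO effect minus CL effect on HFD, DESeq2 gave 0.0018 and RLE factors 0.0015. Without both HFD C-3BO replicates 4 and 5, Lipe, C-3BO against control on HFD, was 0.014, Pnpla2, C-3BO effect on HFD minus C-3BO effect on chow, was -0.0287 (-0.0186 without a filter), and Pnpla3, C-3BO effect minus CL effect on HFD, was -0.33.

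Leaving out 1 mouse gave -0.11 to 0.13 for *Abhd5* with HFD in control mice, -0.0748 to 0.033 for *Aqp7* and -0.20 to 0.22 for *G0s2* with HFD in saline mice, and -0.26 to 0.15 for *G0s2* and -0.11 to 2e-04 for *Lipe* with CL on chow. It gave -0.0577 to 0.0181 for *Lipe* with C-3BO on HFD, and -0.0853 to 0.0286 for *Lipe* in the difference of CL effects. It gave -0.19 to 0.13 for *G0s2*, -0.18 to 0.0086 for *Mgll* and -0.13 to 0.39 for *Pnpla3* in the difference of C-3BO and CL effects on HFD, and -0.0555 to 0.093 for *Pnpla2* in the difference of C-3BO effects.

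With the replicate number as a block, the call of *Pnpla3* for HFD in CL mice was lost (-0.71, edgeR adjusted p = 0.0545), and no other member's call changed. In the C-3BO comparisons on chow and on HFD, 3 of 5 mice each correlated best with their own number. The highest correlation of same-numbered mice was 0.444 on chow and 0.154 on HFD. The lowest library total, 849126 counts, limits the precision of *Abhd5* in HFD saline replicate 4, at 59 counts.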
